A study of Homo sapiens and Mus musculus with 6 samples.

Results

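The promoters of 10 Wnt genes were followed in lists of promoter contacts from mouse embryonic stem cells (mESCs) and from the human lymphoblastoid cell line GM12878. The genes were Wnt1, Wnt10b, Wnt6, Wnt10a, Wnt3, Wnt9b, Wnt3a and Wnt9a, which lie as 4 neighbouring pairs, and Wnt2 and Wnt5a, which were taken as single genes. A call was taken when 1 of these symbols stood at either of its ends, regardless of its score or distance. All 10 genes were found among the 17014 gene symbols of the mESC list, and 9 of them among the 21998 of the GM12878 list, where WNT9A had no call.

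The contacts were measured by Promoter Capture Hi-C (CHi-C), in which a library of ligated HindIII restriction fragments is enriched for those that hold promoters. These captured fragments are called baits, and the fragment at the far side of a contact is called the other end. The mESCs were J1 cells of the strain 129S4/SvJae, grown with serum on irradiated embryonic fibroblasts, and GM12878 was grown in suspension with serum. The labels name no engineered allele or added agent in either culture. The labels describe 2 biological replicates for mESC CHi-C, 3 for GM12878 CHi-C and 1 library for mESC Hi-C, which was made without capture. The authors combined the replicates of each cell type before calling contacts, so each cell type was 1 set of calls. No spread between replicates could be computed and no test was made. Intervals given with shares below are Wilson 95% intervals over calls, and they cover counting error only. The CHi-C lists hold called fragment pairs only, so the depth of each library was not computed from them.

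Wnt genes encode secreted, lipid-modified ligands that bind Frizzled receptors and Lrp co-receptors, and in the canonical pathway this stabilises β-catenin, which then acts with Tcf/Lef factors in the nucleus. The ligands pattern the embryo along its axes, and Wnt signalling also helps to keep mESCs in culture undifferentiated. Many vertebrate Wnt genes lie beside another Wnt gene, either head to head or in the same orientation, so that neighbouring promoters can be captured as separate baits and their contacts compared.

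In mESCs, 331 of the 101841 listed calls (0.325%) had a member at an end, and in GM12878 there were 52 of 92929 (0.0560%). The mESC calls were unevenly divided. Wnt6 had 84 calls, Wnt10b had 67, Wnt1 had 65 and Wnt10a had 44, whereas Wnt9b had 23, Wnt9a 19, Wnt3 17, Wnt5a 9, Wnt3a 6 and Wnt2 a single call. A call between both genes of a pair was counted for each. Among 16265 mESC baits with a call, the Wnt1 bait ranked 25 by number of calls, the Wnt6 bait 35, the Wnt10b bait 135 and the Wnt10a bait 310. The promoters of the other 6 genes ranked between 976 for Wnt9b and 12468 for Wnt2. In GM12878 the WNT6 fragment had 20 calls, the fragment that holds both WNT1 and WNT10B had 10, WNT10A had 7, the fragment shared by WNT3 and WNT9B had 6, and WNT2, WNT3A and WNT5A had 3 each. The lists come from different capture designs, genomes and read depths, so the numbers of calls in the cell types are given side by side and are not compared.

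**Figure D1:**
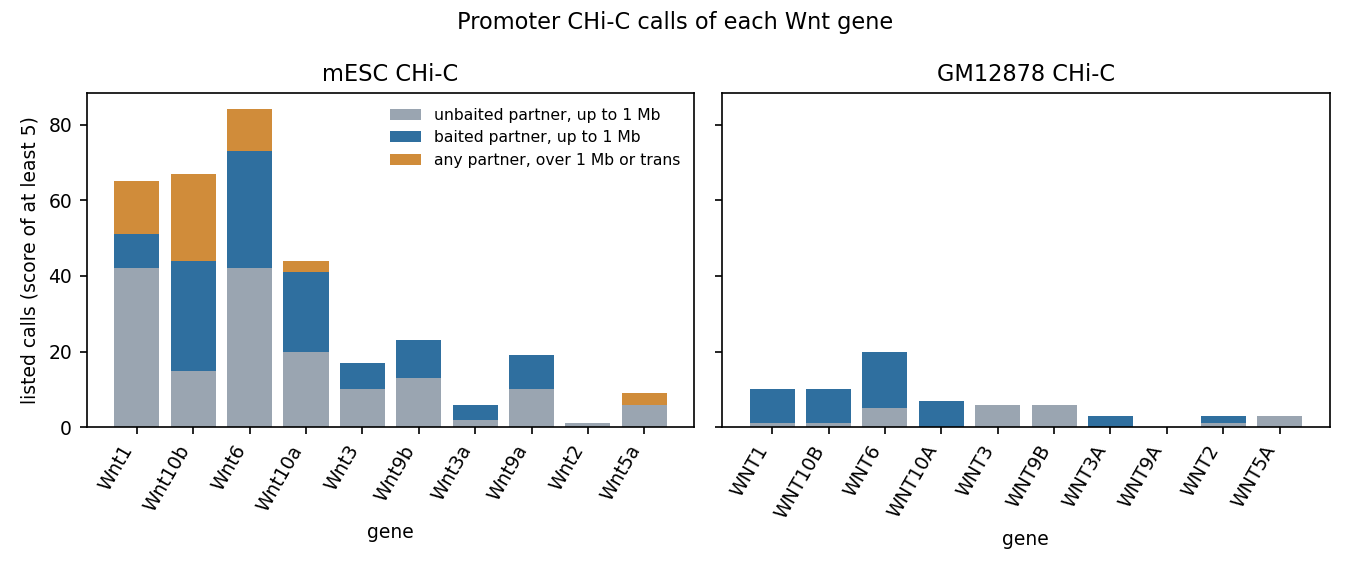
Listed calls of each Wnt gene in mESCs (left) and GM12878 (right), stacked by whether the partner fragment was unbaited, baited, or over 1 Mb away or on another chromosome. Wnt1, Wnt10b, Wnt6 and Wnt10a hold most mESC calls and nearly all long-range ones, and in GM12878 WNT1 and WNT10B, and WNT3 and WNT9B, are drawn with equal bars because each pair lies on 1 fragment.

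Long-range contacts stood out among the mESC calls of the Wnt promoters. Contacts over 1 Mb on the same chromosome made up 53 of the 331 calls (16.0%, 12.5 to 20.3), against 3.37% of all listed mESC calls. Among calls on at least 10 reads, those over 1 Mb or between chromosomes made up 6.48% of 247 member calls and 0.956% of all calls, in place of 16.3% and 3.94%. Of the 53, 22 were calls of Wnt10b, 14 of Wnt1, 11 of Wnt6, 3 of Wnt10a and 3 of Wnt5a, while Wnt3, Wnt9b, Wnt3a, Wnt9a and Wnt2 had none. The calls of Wnt10b include calls from both ends of a fragment pair, whereas the Wnt1 fragment was never listed as an other end. Only 1 member call joined different chromosomes (0.302%, 0.0534 to 1.69), against 0.569% of all calls. That call led from Wnt10b to a fragment on chromosome 10 named for AC152058.1, with 3 reads and a score of 5.14. The median distance of the member calls on the same chromosome was 195 kb (95% interval of the median 175 to 263), against 139 kb over all listed calls of that kind.

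The CHiCAGO score, which rises as the read count of a fragment pair exceeds the count modelled for its distance and baits, was at least 5 in every listed call. A score of at least 10 was reached by 124 of the 331 member calls (37.5%, 32.4 to 42.8), against 16.9% of all mESC calls. By gene, Wnt6 had 39 such calls, Wnt10b 32, Wnt1 21 and Wnt10a 18, while each remaining gene had between 0 and 4. The median read count of the 331 member calls was 15 (14 to 17), against 13 over all calls. Reads here are the replicate-combined counts that the authors listed with each call.

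Many of the contacts joined promoters to promoters. In mESCs 153 of the 331 member calls (46.2%, 40.9 to 51.6) had baited fragments at both ends, against 36.3% of all calls. This difference rests on how calls are counted, because a call in which the member is the other end always joins baited fragments. With the members at the bait end only, the share was 31.3% (25.9 to 37.2), and with each fragment pair counted once it was 35.7% (30.3 to 41.5), against 31.1% of all fragment pairs. Of the 99 pairs of baited fragments that include a member, 54 were called from both ends (54.5%, 44.8 to 64.0), against 26.2% of all called pairs of baited fragments. None of these 54 involved Wnt1, since the Wnt1 fragment was never listed as an other end in spite of its 16 baited partners. The same held for 19.6% of the mESC baits with at least 10 calls to baited fragments.

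**Figure D2:**
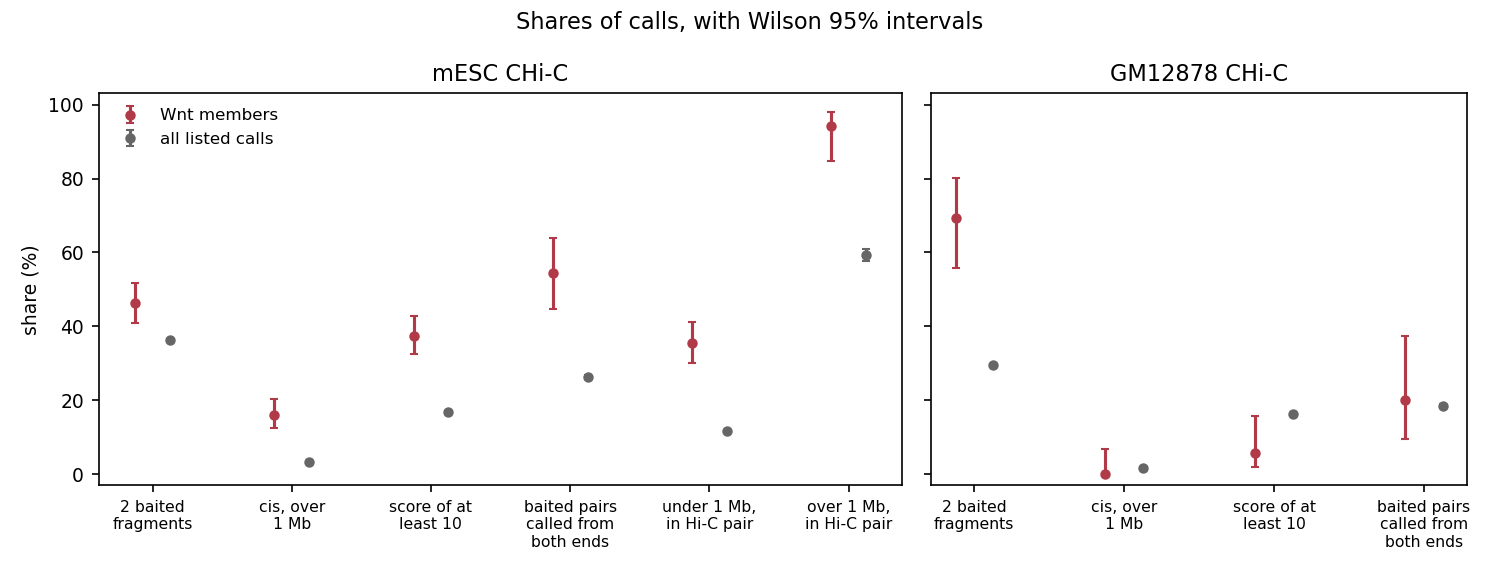
Shares of calls, in percent, for the Wnt members and for all listed calls of mESCs (left) and GM12878 (right), with bars for Wilson 95% intervals, which cover counting error only. In mESCs 16.0% of member calls were over 1 Mb, above the 3.37% of all calls. A score of at least 10 was reached by 37.5%, above the 16.9% of all calls, and most of these were calls of Wnt1, Wnt10b, Wnt6 or Wnt10a. In GM12878 no member call spanned 1 Mb, against 1.64% of all calls, and a count of 0 in 52 calls allows up to 5.77%.

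Each captured fragment was found to hold the annotated start of its Wnt gene. The letters just before the starts of Wnt1, Wnt10b, Wnt6 and Wnt10a, the genes with the most calls, are shown as 250 bases of the mm9 genome on the gene's own strand, with every CpG in capitals.
Wnt1, chr15:98620038-98620287, plus strand: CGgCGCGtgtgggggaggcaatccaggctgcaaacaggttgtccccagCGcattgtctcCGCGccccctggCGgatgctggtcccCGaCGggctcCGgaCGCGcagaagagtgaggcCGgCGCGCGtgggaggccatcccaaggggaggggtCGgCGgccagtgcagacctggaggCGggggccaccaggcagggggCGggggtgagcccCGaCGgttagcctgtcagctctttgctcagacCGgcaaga
Wnt10b, chr15:98608582-98608831, minus strand: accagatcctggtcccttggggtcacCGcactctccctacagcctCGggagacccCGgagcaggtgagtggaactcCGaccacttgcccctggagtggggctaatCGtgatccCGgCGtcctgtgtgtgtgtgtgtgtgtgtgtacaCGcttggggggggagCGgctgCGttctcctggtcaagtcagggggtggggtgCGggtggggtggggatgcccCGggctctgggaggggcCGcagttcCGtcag
Wnt6, chr1:74818216-74818465, plus strand: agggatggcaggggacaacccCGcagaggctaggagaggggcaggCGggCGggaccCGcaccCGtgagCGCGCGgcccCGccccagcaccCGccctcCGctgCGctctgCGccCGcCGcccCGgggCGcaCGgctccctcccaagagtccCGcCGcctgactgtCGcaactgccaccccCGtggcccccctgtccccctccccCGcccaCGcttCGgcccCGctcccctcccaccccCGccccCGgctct
Wnt10a, chr1:74837840-74838089, plus strand: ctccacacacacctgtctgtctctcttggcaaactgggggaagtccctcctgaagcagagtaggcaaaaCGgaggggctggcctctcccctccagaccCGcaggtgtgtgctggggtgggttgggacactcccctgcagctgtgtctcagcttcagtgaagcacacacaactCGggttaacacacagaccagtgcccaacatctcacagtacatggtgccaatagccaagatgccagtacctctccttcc

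These windows differ in their CpG content. The Wnt6 window holds 28 CpG and that of Wnt1 holds 23, the Wnt10b window has 14 and the Wnt10a window 3, against a median of 9 (quartiles 3 and 18) over 21699 windows of the same length before annotated mouse gene starts. Fewer CpG than before Wnt6 were found in 91.5% of those windows, and fewer than before Wnt10a in 24.5%. The other 6 members ranged from 9 CpG for Wnt5a to 48 for Wnt9a, with 10 for Wnt2, 22 each for Wnt3 and Wnt9b, and 41 for Wnt3a. The order of the CpG counts is not that of the call counts, since Wnt3a and Wnt9a had many CpG and few calls. The letters TATAAA were found on either strand in 12.3% of all windows and CTTTGAA, the core of a Tcf/Lef site, in 4.15%, and neither was found in the windows of the 10 members.

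Wnt1 and Wnt10b lie on mouse chromosome 15 in opposite orientations. The Wnt1 bait spans chr15:98615317-98621983 (6667 bp, mm9) and the Wnt10b bait chr15:98606642-98611550 (4909 bp), and their midpoints are 9.55 kb apart. A contact was read where the cut ends of such fragments had been joined, and the ends of both baits and of the Hoxc8 fragment described below are shown with the HindIII site in capitals. All 212 fragments at mESC member calls had the site at both ends in mm9.
Wnt1 fragment, lower end, chr15:98615316-98615345: AAGCTTcatttgggttgatgtacatcttgt
Wnt1 fragment, upper end, chr15:98621959-98621988: tgctaaggctctggagtctcagtaAAGCTT
Wnt10b fragment, lower end, chr15:98606641-98606670: AAGCTTcttgggttggggggcatctcttgt
Wnt10b fragment, upper end, chr15:98611526-98611555: tctctctatcccaacgtctaagcaAAGCTT
Hoxc8 fragment, lower end, chr15:102818108-102818137: AAGCTTcagtcagaaaggccctggcttctg
Hoxc8 fragment, upper end, chr15:102825299-102825328: caaagtgtagtggtgagggtgaagAAGCTT

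The partners with the highest scores lay on either side of the pair. The highest score of any mESC member call, 71.37 on 59 reads, joined the Wnt10b bait to the fragment of Dnajc22, a DnaJ family gene 315 kb away, and the same fragment was called from Wnt1 with 75 reads and a score of 34.13. C1ql4, which encodes a secreted C1q-like protein and lies next to Dnajc22, was called from Wnt10b with 32 reads (score 33.95) and from Wnt1 with 55 reads (26.68). Dhh, the gene of the hedgehog ligand Desert hedgehog, was called from Wnt10b at 118 kb with 55 reads (40.25, and 40.46 from the Dhh end) and from Wnt1 at 108 kb with 76 reads (19.62).

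On the other side of the pair, the adenylate cyclase gene Adcy6 was called from Wnt10b with 45 reads (37.93) and from Wnt1 with 61 reads (21.12), and Rnd1 was called from Wnt10b with 28 reads (14.89) and from Wnt1 with 45 (8.92). For each of these 5 promoters the Wnt1 bait gave more reads and the Wnt10b bait the higher score. The histone methyltransferase gene Mll2 followed the same order, with 46 reads and a score of 6.98 from Wnt1 and 35 reads and 19.23 from Wnt10b.

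**Figure D3:**
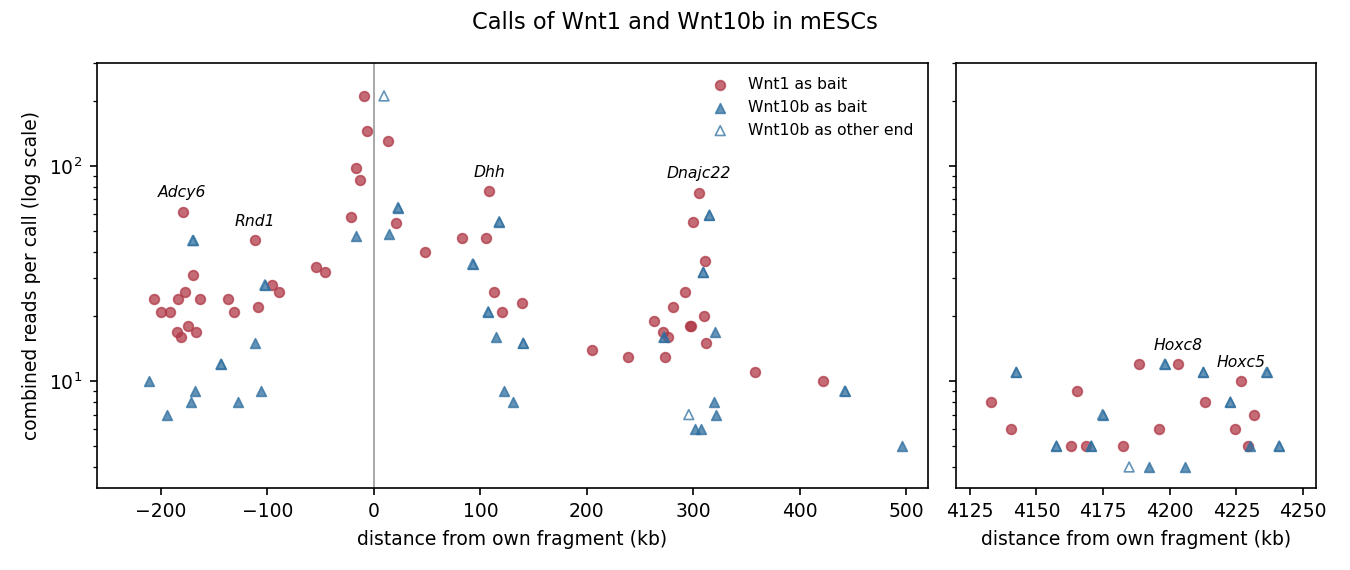
Combined reads of each mESC call of Wnt1 (circles) and Wnt10b (triangles), on a log scale, against the distance in kb from the gene's own fragment, with the nearer contacts on the left and those over 4 Mb on the right. Calls gather near the pair itself, around Dhh (108 kb from Wnt1) and Dnajc22 (305 kb), around Adcy6 on the other side, and again on the Hoxc cluster, where reads per call are between 4 and 12.

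The long-range contacts of Wnt1 and Wnt10b all fell on the Hoxc cluster, a run of homeobox genes that specify position along the body axis. Wnt1 had 14 calls over 1 Mb on 14 fragments and Wnt10b had 22 on 13 fragments, and every one of these fragments lay in chr15:102749793-102851471, between 4133 and 4241 kb from the bait. Together they covered 18 fragments, 10 of them baited, and 9 were called with both genes. The Hoxc8 fragment was called from Wnt1 with 12 reads (score 18.04), from Wnt10b with 11 reads (26.91) and from its own end to Wnt10b (21.5). The fragment named for the microRNA Mir196a-2, which also overlaps Hoxc9 exons, had 12 reads with each gene and scores of 18.01 from Wnt1 and 30.37 from Wnt10b.

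The other members of the cluster had between 4 and 11 reads. Hoxc5 had 10 reads with Wnt1 and 11 with Wnt10b, Hoxc6 had 8 with each, Hoxc11 had 9 and 7, and Hoxc4 had 7 and 5. Hoxc12 was called with Wnt10b alone on 5 reads. The promoter fragment of Hoxc10 was called with Wnt10b alone on 4 reads, from the Hoxc10 end only, and Wnt1 was never listed as an other end. A fragment named for Gm17649, which overlaps Hoxc13 exons, had 8 reads with Wnt1 and 11 with Wnt10b. Read counts at this distance are small, and the highest of them, 12, compares with 211 for the call between the neighbours Wnt1 and Wnt10b.

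The Wnt pair was not the only partner of the cluster in its neighbourhood. All listed calls over 1 Mb that included 1 of the 10 baited fragments in that interval numbered 66, and their named partners carried 6 gene symbols. Fragment pairs called from both ends count for each end, which cannot add calls for Wnt1, never listed as an other end. By fragment, Wnt10b was called with 10 of these baited fragments and Wnt1 with 7. Wnt10b was at the end of 19 of these calls and Wnt1 of 7, while Dnajc22 had 14, the dendrin gene Ddn 6, C1ql4 4 and Dhh 3. These last 4 genes were also direct partners of Wnt1 and Wnt10b. In GM12878, 9 HOXC symbols were named in the list with 185 calls, and none of those calls spanned over 1 Mb. Of all GM12878 calls 1.64% did, a share at which few of 185 calls would, and the difference was not tested.

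Wnt6 and Wnt10a are neighbours in the same orientation on mouse chromosome 1. The Wnt6 bait spans chr1:74813393-74819619 (6227 bp, mm9) and the Wnt10a bait chr1:74831766-74843131 (11366 bp), which also overlaps the last part of Wnt6, with 20.9 kb between their midpoints. Their fragment ends are shown with those of Fev and Pax3, the leading partners at short and at long range, again with the HindIII site in capitals.
Wnt6 fragment, lower end, chr1:74813392-74813421: AAGCTTttcttgatctgatcaccccaaatc
Wnt6 fragment, upper end, chr1:74819595-74819624: acacctagacttcgagggtttccaAAGCTT
Wnt10a fragment, lower end, chr1:74831765-74831794: AAGCTTctagtagtgggcttagttgtcagg
Wnt10a fragment, upper end, chr1:74843107-74843136: gagggagggtgtattccattcacaAAGCTT
Fev fragment, lower end, chr1:74930731-74930760: AAGCTTggaaaaaccatacttgacagaaaa
Fev fragment, upper end, chr1:74933477-74933506: agggtgaagtgtttgggagggaacAAGCTT
Pax3 fragment, lower end, chr1:78192935-78192964: AAGCTTgttcacctttctcacggcagcaat
Pax3 fragment, upper end, chr1:78193709-78193738: agcatttattagttctttcacccaAAGCTT

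Almost all calls of this pair pointed to 1 side, past Wnt10a. Only 6 of the 84 calls of Wnt6 and 2 of the 44 of Wnt10a reached fragments at lower coordinates than their own. The promoter of Fev, an ETS transcription factor of serotonergic neurons, had 172 reads with Wnt6 at 116 kb (scores 33.77 from Wnt6 and 34.52 from Fev) and 89 reads with Wnt10a at 94.7 kb (58.37 and 35.63). An unbaited fragment that overlaps an exon of Fev, chr1:74928566-74930215, gave the highest score of Wnt6, 55.01 on 76 reads, and was called from Wnt10a with 33 reads (27.11).

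The next promoters along the chromosome were also called with both genes. The crystallin gene Cryba2 had 78 reads with Wnt6 (38.51 from the Wnt6 bait) and 39 with Wnt10a (23.3), and the microRNA gene Mir375 had 65 (31.52) and 36 (21.76). Ihh, which encodes the hedgehog ligand Indian hedgehog, had 52 reads with Wnt6 at 183 kb (29.41 from Wnt6 and 35.29 from Ihh) and 20 with Wnt10a at 163 kb (12.29 and 12.05). Wnt6 gave more reads than Wnt10a with each of these 4 promoters, and Wnt10a the higher score at Fev only. Farther out, Accn4, an acid-sensing ion channel gene, had 17 reads from Wnt10a at 609 kb (18.96) and 16 from Wnt6 at 630 kb (11.18), so that Wnt10a was higher in both.

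**Figure D4:**
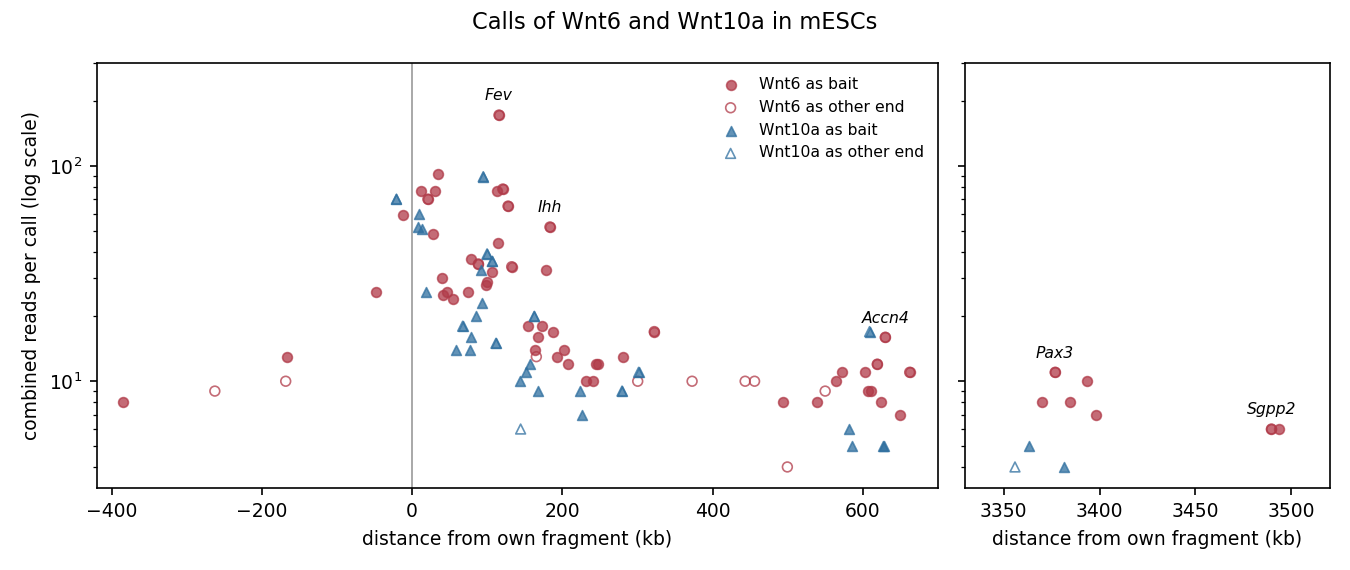
Combined reads of each mESC call of Wnt6 (circles) and Wnt10a (triangles), on a log scale, against the distance in kb from the gene's own fragment, with the nearer contacts on the left and those around Pax3 and Sgpp2 on the right. Nearly all points lie on the positive side, with the peak of 172 reads at Fev, and the Ecel1 contact of Wnt6 at 14233 kb lies beyond the axis.

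At long range Wnt6 contacted Pax3, a paired-box transcription factor gene of neural crest and muscle precursors. The Pax3 promoter fragment, chr1:78192936-78193733, was called at 3377 kb with 11 reads from both ends, with scores of 20.44 from Wnt6 and 26.18 from Pax3. Wnt10a was called from the Pax3 end on 4 reads (5.24). Around it Wnt6 had 4 unbaited fragments with 7 to 10 reads, 1 overlapping Pax3 exons and 3 with Pax3 as the nearest gene, and Wnt10a had 2 with 4 and 5 reads. Wnt6 also reached Sgpp2, a sphingosine phosphatase gene, at 3490 kb with 6 reads (6.99 from Wnt6 and 7.67 from Sgpp2), and Ecel1, an endothelin-converting enzyme-like gene, at 14233 kb with 5 reads (7.84 and 6.3), the longest cis contact of any member.

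Pax3 was itself joined to many promoters. It stood in 34 calls over 1 Mb, whose named partners carried 11 gene symbols, and Wnt6 accounted for 2 of these calls and Wnt10a for 1. Fev, Cryba2, Mir375, Ihh, Cdk5r2 and Accn4, which are partners of Wnt6 and Wnt10a, each had 2. Like the Hoxc contacts of Wnt1 and Wnt10b, the Pax3 contacts were shared with promoters that the Wnt baits also contacted directly.

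How far the neighbours of a pair had the same contacts was read from the fragments called from both of their baits. In mESCs the promoters of 3 of the 4 pairs were joined by a call. Wnt1 and Wnt10b had 211 reads between them and a score of 9.61, from the Wnt1 end alone, and the Wnt1 fragment was never listed as an other end for any bait. Wnt6 and Wnt10a had 70 reads and were called from both ends (8.37 from Wnt6 and 14.4 from Wnt10a). Wnt3 and Wnt9b, 23.0 kb apart, had 49 reads and a score of 5.06 from the Wnt9b end alone. No call joined Wnt3a and Wnt9a, 17.1 kb apart. Of all pairs of baited fragments in the mESC list that lay between 9 and 27 kb apart, 38.9% were joined by a call. Captured baits absent from the list of calls were not counted.

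The Wnt1 and Wnt10b baits had 28 called fragments in common, 43.1% of the 65 of Wnt1 and 65.1% of the 43 of Wnt10b. Wnt6 and Wnt10a also had 28, 45.9% of the 61 of Wnt6 and 87.5% of the 32 of Wnt10a. Wnt3 and Wnt9b had 9, 69.2% of the 13 of Wnt3 and 47.4% of the 19 of Wnt9b, and Wnt3a and Wnt9a had 3, 60% of 5 and 23.1% of 13. Over 1209 pairs of mESC baits at the same spacing, each with at least 10 calls, the shared part of the shorter list had a median of 57.1% (quartiles 41.2 and 70.6). Of the 3 Wnt pairs that meet that minimum, Wnt6 with Wnt10a lay above the upper quartile and both others between the quartiles.

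On the fragments they shared, Wnt1 gave more reads than Wnt10b in 24 of 28, with a median ratio of 1.55, yet the higher score in 11 only. Wnt6 gave more reads than Wnt10a in 26 of 28, with a median ratio of 1.80, and the higher score in 25. For Wnt3 and Wnt9b the median ratio was 1, with more reads from Wnt3 in 3 fragments and from Wnt9b in 3. Over the shared fragments, the log10 read counts of neighbours gave Pearson's r of 0.86 for Wnt1 and Wnt10b (Spearman's rank correlation 0.775, n = 28 fragments), 0.943 for Wnt6 and Wnt10a (0.923, n = 28), and 0.694 for Wnt3 and Wnt9b (0.281, n = 9). These fragments come from the same libraries, and their distances from both neighbours differ by the spacing of the pair, so the correlations are a description of the profiles.

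**Figure D5:**
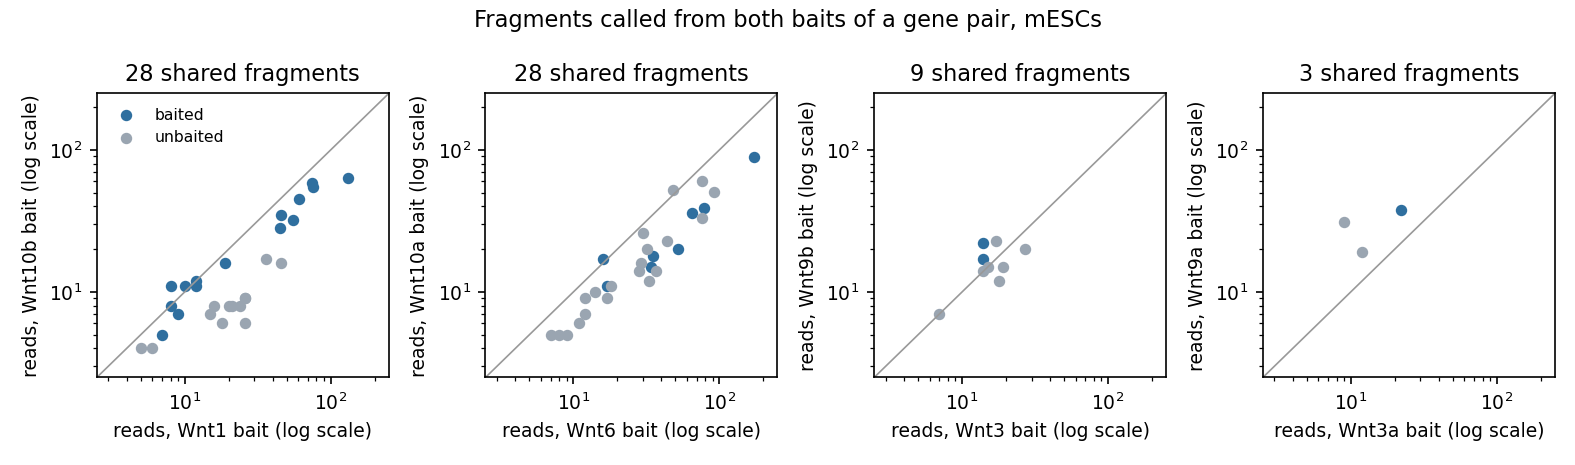
Combined reads, on log scales, of every fragment called from both baits of a mouse gene pair, with the first gene on the horizontal and the second on the vertical axis, baited fragments in blue and unbaited ones in grey, and a line of equal reads. Most points of Wnt1 with Wnt10b and of Wnt6 with Wnt10a lie below the line (median read ratios 1.55 and 1.80), whereas the 9 points of Wnt3 with Wnt9b lie 3 on each side of it and 3 on it.

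Wnt3 and Wnt9b, on mouse chromosome 11, had fewer and weaker contacts, the longest being that of Wnt9b with Map3k14, a kinase gene of NF-κB signalling, at 484 kb (12 reads, 6.31). Both were called with Mapt, the gene of the microtubule-binding protein tau. Wnt9b had 22 reads there at 482 kb (16.07 from Wnt9b and 14.55 from Mapt), and Wnt3 had 14 at 459 kb (8.65 and 8.01). Both were also called with the corticotropin-releasing hormone receptor gene Crhr1, on 17 reads from Wnt9b (10.62) and 14 from Wnt3 (8.33). Fragments within Nsf, an ATPase gene of membrane fusion, gave the highest score of Wnt3, 11.35 on 18 reads, and the second highest of Wnt9b, 15.09 on 23 reads.

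Wnt9a and Wnt3a lie on the same chromosome as Wnt3, but far from it. The highest score of Wnt9a, 19.13 on 31 reads, was with the unbaited fragment chr11:59294737-59299712, which overlaps exons of the zinc finger gene Zkscan17, and Wnt3a had 9 reads on the same fragment (6.95). The jumonji-domain gene Jmjd4 had 38 reads with Wnt9a (10.82) and 22 with Wnt3a, where it gave the highest score of that gene (12.49). Zfp867, a zinc finger gene, had 23 reads with Wnt9a (6.42 from Wnt9a and 12.34 from Zfp867), and the longest contact of the pair joined Wnt3a to Mprip at 366 kb on 8 reads (5.29). The small GTPase gene Arf1 was called to Wnt9a with 21 reads (8.11) and to Wnt3a with 16 (5.43), both from the Arf1 end.

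Wnt5a, a ligand known for β-catenin-independent signalling, had 9 calls, which began at 596 kb. Within 4 fragments in introns of Erc2, a gene of the presynaptic active zone, reads ranged from 10 to 16, with a highest score of 13.21. The calcium channel subunit gene Cacna2d3 was contacted at its promoter at 1221 kb with 14 reads from both ends (10.94 from Wnt5a and 18.33 from Cacna2d3) and at 2 fragments inside the gene on 13 and 11 reads. A call from Zmiz1 reached Wnt5a over 3040 kb on 5 reads (8). The single call of Wnt2 led over 539 kb to an intergenic fragment whose nearest gene is Cttnbp2, with 6 reads and a score of 6.71.

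The Hi-C library of mESCs, which did not enter the choice of calls, was made before capture and has lower resolution. The study describes it as the pre-capture data set of these cells, so it is not a sample of separate origin. Under 1 Mb, 98 of 277 member calls (35.4%, 30.0 to 41.2) had both fragment midpoints in a pair of 25-kb bins that the authors called at a false discovery rate under 0.05, against 11.6% of all calls. The share was 53.2% (43.2 to 63.0) of 94 calls at Wnt1 and Wnt10b, 44% (26.7 to 62.9) of 25 at Wnt3a and Wnt9a, 23.2% (16.4 to 31.8) of 112 at Wnt6 and Wnt10a, and 12.8% (5.60 to 26.7) of 39 at Wnt3 and Wnt9b. All 6 calls of Wnt5a under 1 Mb lay in such a pair, and the call of Wnt2 did not. The intervals of Wnt1 with Wnt10b and of Wnt3 with Wnt9b do not overlap, but many calls at 1 locus fall in the same bin pair. Because the intervals treat such calls as independent, they do not show a difference between loci, and none was tested.

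Over 1 Mb, 50 of 53 member calls (94.3%, 84.6 to 98.1) lay in a called pair of 1-Mb bins, against 59.4% of all such calls. These 50 calls fell in only 3 bin pairs. The pair that holds Wnt1, Wnt10b and the Hoxc cluster had 960 read pairs against 361.3 expected from coverage and distance, a ratio of 2.66, and took in 27 called fragment pairs. That of Wnt6, Wnt10a and Pax3 had 571 against 356.6 (1.60) with 10 fragment pairs, and that of Wnt6 and Ecel1 had 246 against 138.9 (1.77) with 1. The false discovery rate of each was listed as 0. The bin pairs of Wnt5a with Cacna2d3 and with Zmiz1 were not among those called.

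Contacts with transcription factor genes were set against a list of developmental families, of which 205 genes were named in the mESC list and 190 in that of GM12878. Genes were counted by the symbols that name the fragments. The fragments named for Gm17649 and Mir196a-2 hold the annotated starts of Hoxc13 and Hoxc9, so the counts and shares below leave out their calls with members. By name, the members contacted 8 of the mouse genes, Hoxc4, Hoxc5, Hoxc6, Hoxc8, Hoxc10, Hoxc11, Hoxc12 and Pax3. They did so in 21 calls (6.34% of 331, 4.19 to 9.50), against 4.35% of all mESC calls. Every one of these calls was over 1 Mb, where they made up 39.6% (27.6 to 53.1) of 53 member calls, against 28.2% of all calls over 1 Mb, so that the interval just takes in the share of all calls. In GM12878 no member call involved a gene of the list, against 1.53% of all calls, and a count of 0 in 52 calls allows a share of up to 5.77%. The transcription factor gene Fev is not in the list. Its calls with Wnt6 and Wnt10a, under 1 Mb in mESCs and in GM12878, are therefore left out of these counts. The 0 in GM12878 and the distances over 1 Mb in mESCs hold for the listed genes only.

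Contacts among Wnt genes beyond the pairs were not found. No call joined different Wnt loci in either cell type, and none joined a member to the 9 other Wnt genes named in the mESC list or the 8 in that of GM12878. These genes had calls of their own, in mESCs from 1 each for Wnt8b and Wnt16 to 20 for Wnt7b and 23 for Wnt8a. Nor did a member contact any gene of the pathway lists. In mESCs these held 2 named genes of Wnt secretion, 16 receptors and co-receptors, 13 secreted inhibitors and enhancers, 11 intracellular components and 12 target genes, and in GM12878 1, 16, 11, 12 and 10. Of all calls, 0.565% in mESCs and 0.407% in GM12878 had a gene of these lists or of the other Wnt genes at an end. With no such call, the upper limit was 0.906% of the 331 mESC calls and 5.77% of the 52 GM12878 calls, so that the members are not shown to lie below those shares.

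In GM12878 the Wnt promoters had contacts of low score. The 52 calls included none over 1 Mb, against 1.64% of all calls, and none between chromosomes, against 0.31%. A count of 0 in 52 calls allows up to 5.77%, so the members are not shown to lie below either share. A score of at least 10 was reached in 3 calls (5.77%, 1.98 to 15.6), against 16.3% of all calls. The median distance was 137 kb (111 to 184), an interval that takes in the 174 kb of all listed calls. The median read count was 13.5 (12 to 16), against 16. Calls between baited fragments numbered 36 (69.2%, 55.7 to 80.1), against 29.4% of all calls, and with the members at the bait end only the share was 51.5% (35.2 to 67.5). Of 30 pairs of baited fragments with a member, 6 were called from both ends (20%, 9.51 to 37.3), against 18.5% of all such pairs.

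The 3 calls with a score of at least 10 were at WNT1 with WNT10B and at WNT6. The fragment chr12:49363557-49373703 (10147 bp, hg19) holds both WNT1 and WNT10B, so that their contacts cannot be told apart and a call between them is impossible. It was joined to the small GTPase gene ARF3 with 48 reads (11.53), was called from the RNA helicase gene DDX23 with 9 reads (11.41) and had 21 reads with RNU6-600P (9.41). The WNT6 fragment is long (26173 bp) and was called from a fragment named for RNU6-642P with 23 reads (12.39), and it was joined to the fragment of BCS1L, RNF25 and ZNF142 with 24 reads (9.87 and 9.74). Its longest call came from a fragment named for C2orf62 among others, at 488 kb on 5 reads (7.45). WNT10A, 26.8 kb away, had no call with WNT6, while 32.9% of baited pairs in the GM12878 list 9 to 27 kb apart were joined. Both contacted 4 fragments in common, 40% of the 10 called from WNT6 and 57.1% of the 7 called from WNT10A, and WNT6 had more reads in all 4.

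The remaining human genes had few contacts. WNT3 and WNT9B share a fragment of 21295 bp, whose 6 calls all led to unbaited fragments, 4 of them within WNT3 or WNT9B, 1 in NSF exons and 1 in an intron of KANSL1 at 637 kb, on 7 to 23 reads with a highest score of 7.38. WNT3A was called from ARF1 with 21 reads (9.48) and from C1orf35 with MIR3620 on 11 (8). WNT5A had 3 calls to introns of ERC2 at 184 to 237 kb on 8 to 10 reads, with a highest score of 8.6. WNT2 was called from ST7-AS2 with 7 reads (7.74) and from AC106873.4 with 10 (7.39), and its own bait was joined to an unbaited fragment 388 kb away on 11 reads (5.73).

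Partner genes were matched between the species by symbol. The mouse members had 66 partner symbols and the human members 40, and 13 were found in both, 19.7% of the mouse and 32.5% of the human symbols. Not every partner could be matched, since 43 of the 66 mouse symbols were named anywhere in the GM12878 list and 16 of the 40 human symbols in the mESC list. The Wnt1 and Wnt10b locus had 5 shared partners (ARF3, DDX23, DHH, LMBR1L and RND1), the Wnt6 and Wnt10a locus 7 (CCDC108, CRYBA2, FEV, MIR375, RNF25, RQCD1 and SLC23A3), and Wnt3a with Wnt9a had ARF1. KMT2D, the current name of mouse Mll2, made a 14th when synonyms were allowed. No such share was computed over all genes, so these counts have no background beside them. FEV and CRYBA2 name the same human fragment but were counted separately. The counts rest on the symbols that name the fragments and are not complete. The mouse fragments named for Rnf25 and 1810031K17Rik also hold the starts of Stk36 and Fam134a, and STK36 and FAM134A name human partner fragments.

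Reads of these partners come from different libraries and are not on 1 scale, so values are given side by side. Dhh had 55 reads and a score of 40.25 from Wnt10b in mESCs at 118 kb, and 5 reads and 5.46 with the fragment of WNT1 and WNT10B in GM12878 at 115 kb. FEV and CRYBA2 share 1 human fragment, which had 21 reads with WNT6 at 132 kb (7.48) and 13 with WNT10A at 105 kb (6). MIR375 had 22 reads with WNT6 at 150 kb (7.62), against 65 in mESCs at 128 kb. ARF1 had 21 reads and a score of 9.48 with WNT3A at 69.0 kb and 16 reads and 5.43 with Wnt3a in mESCs at 63.8 kb. RNF25 had up to 24 reads in GM12878 (9.87 from WNT6) and 10 with Wnt6 in mESCs (5.07). ARF3 had 48 reads (11.53) in GM12878 and 47 with Wnt10b in mESCs (6.84), and DDX23 had 9 (11.41) and 15 (6.07). No listed GM12878 call named PAX3.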

How the data were processed

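Promoter CHi-C of mESCs (2 replicates combined) and GM12878 (3 combined) and mESC Hi-C (1 library) were used. The authors mapped read pairs to mm9 or hg19 with HiCUP, for which the submitters' processing notes name Bowtie 1.1.0, removed duplicates and called contacts with CHiCAGO. The deposited score and read count of each call were taken as listed, and the read count, weighted by size factors, combined over replicates and rounded, was treated as a score and not as raw counts. For Hi-C, the authors deposited the count of read pairs joining each bin pair, the signal expected by HOMER (4.7 in the processing notes) and its adjusted p-value. Baited fragments that called each other count as 2 calls. Because replicates were combined, no count model or other test could be used, and the lists do not give the depth of single CHi-C libraries.

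Gene symbols were split from the fragment names, transcript numbers were dropped, and symbols were compared without regard to case. A fragment counted as baited if it was the bait of any listed call or carried a promoter name. Distances are between fragment midpoints. Shares have Wilson 95% intervals and medians binomial order-statistic intervals, and 3 counts of the total give the limit of a count of 0. Fragments were annotated with Gencode on mm9 or hg19, and sequences were read from those genomes. The members and gene lists were chosen with earlier results of these data known. Named partners were those of the calls with the highest scores, the longest cis and the trans calls, listed genes and partners called in both species, and those given beside them (Adcy6, Rnd1, Mll2, Mir196a-2, C1ql4, Ihh, Sgpp2, Accn4, Cdk5r2, Crhr1 and Gm17649) were chosen after their values were seen. Parsing, counts and intervals were tested on simulated data. Alternatives were a score of at least 10, at least 10 reads, the browser list, each fragment pair once, members at the bait end only and other Hi-C thresholds, with matching by synonym added after the data were seen. Python 3.11.15 with NumPy 2.4.6, SciPy 1.17.1 and matplotlib 3.10.9 was used. One of the 3 calls of WNT3A in GM12878 is not reported here.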

Additional observations from a re-analysis of the deposited data

How the results depend on the processing

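No paired analysis was possible because the replicates of each cell type were combined before deposit, and for the same reason no replicate could be left out. Of the main values under an alternative, 75 stayed within 1.5 times the reported count or within the 95% interval of the reported share or median, and 27 moved. With a score of at least 10, member calls fell from 331 to 124 in mESCs and from 52 to 3 in GM12878, where 3 of the genes kept a call, joined gene pairs in mESCs from 3 to 1, shared fragments from 68 to 21 in mESCs and from 4 to 0 in GM12878, calls with developmental factors from 21 to 13 and partners shared by the species from 13 to 0. Under that threshold the median distance was 174 kb in mESCs and 61.7 kb in GM12878, the share within a Hi-C bin pair at any distance was 64.5%, and calls between baited fragments were 61.3% in mESCs (47.7% of all calls there) and 100% of 3 in GM12878. With at least 10 reads, mESC calls over 1 Mb or between chromosomes fell from 16.3% to 6.48% (0.956% of all calls), calls with developmental factors to 8, shared fragments to 44 and the median distance to 164 kb. With members at the bait end only, 33 GM12878 calls, 12 calls with developmental factors and 6 shared partners were left, and calls between baited fragments were 31.3% in mESCs and 51.5% in GM12878. With each fragment pair once, and in the browser list, the mESC share was 35.7%, and with each pair once the GM12878 baits shared 2 fragments. The Hi-C share of 45.0% at any distance became 38.7% at a false discovery rate under 0.01 and 59.2% over every listed bin pair. The shares of all calls at any distance under these Hi-C and score settings were not computed, so these values have no background beside them. Apart from these constructions of fewer calls, the cause was not tested. Reads per long-range call were few, and contacts below the score of 5 were not analysed here.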
